A study of Mus musculus with 12 samples.

Results

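Expression in splenic marginal zone B cells was compared between mice with 2 floxed Bcl6 alleles (flox/flox) and mice with none (+/+). Of the 12 arrays of the series, 4 enter this comparison, 2 per genotype, and they were chosen by the cell type and genotype in their titles. The 2 marginal zone +/flox arrays, with 1 floxed allele, and the 4 follicular flox/flox and +/+ arrays are used only to place a change. All mice were C57BL/6 females aged 10 weeks. Every animal, +/+ controls included, was heterozygous for mb1-cre, a knock-in at the Cd79a locus that drives Cre recombinase in the B lineage from its early stages. Spleen cells were first depleted magnetically with antibodies to the T cell proteins CD3, CD5 and CD90, the myeloid proteins CD11b, F4/80 and Gr-1, the red cell protein TER119, and CD43, CD95 and CD138, and the B220+AA4.1-CD21highCD23low cells were then sorted. Values are GCRMA log2 levels per probe set of Affymetrix 3' arrays. The labels do not state whether the arrays of a group are from different mice, so p-values here measure a spread that may be technical. The RNA is from bulk cells, so fewer cells of a type and less RNA per cell cannot be told apart.

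BCL6 is a zinc finger repressor that recruits corepressors to DNA and is best known as the factor that B cells need to form germinal centres, where it restrains plasma cell and activation genes. Marginal zone B cells line the marginal sinus of the spleen, carry much CD21 and CD1d and little CD23, depend on NOTCH2 signals, and respond quickly to blood-borne antigens. The title of the series places the deletion in naive B cells.

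The RNA for the sort markers CD21 and CD23 followed the labelled cell type on all of the 4 compared arrays. The sort used these proteins, so this was largely fixed in advance. Cr2, which encodes CD21, lay at 14.38 and 14.88 in +/+ and at 14.05 and 14.63 in flox/flox. On the +/+ and flox/flox follicular arrays Cr2 lay at 12.07 to 13.37. Fcer2a, which encodes CD23, lay at 9.36 and 9.40 in +/+ and at 9.21 and 9.0 in flox/flox, against 13.63 to 14.21 on the +/+ and flox/flox follicular arrays. The defining T cell genes Cd3d, Cd3e, Cd3g, Cd4 and Thy1, the NK cell genes Ncr1, Gzma and Nkg7, and the red cell genes Hba-a1 and Alas2 were at or within 0.1 of the minimum value of the arrays, 2.22. Other members of these lists were higher. In the order +/+ replicates 1 and 2, then flox/flox replicates 1 and 2, Prf1 read 3.55, 6.24, 4.86 and 5.04 and Klrd1 read 3.94, 3.52, 3.22 and 3.42. Of the erythroid genes, Car1 read 4.64, 2.49, 3.69 and 2.49 and Slc4a1 read 3.67, 2.80, 3.51 and 3.45. Cd2, which B cells also express, lay between 11.60 and 11.79.

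A pair of the 4 arrays stood apart. On +/+ replicate 1 the Gapdh control probe set at the 3' end read 6.90 log2 units above that at the 5' end, against -0.20 to 0.05 on the other 5 marginal zone arrays, and the beta-actin pair differed by 2.19 against 0.82 to 1.07. That array correlated with +/+ replicate 2 at r = 0.944 over all tested genes, whereas +/+ replicate 2 and flox/flox replicate 2 reached 0.991. The second such array was flox/flox replicate 1, which shared high levels of several gene lists with +/+ replicate 1. The mean of the 4 tested neutrophil genes, such as S100a8 and S100a9, was 6.59 and 2.30 on +/+ replicates 1 and 2 and 5.60 and 2.30 on flox/flox replicates 1 and 2, while the neutrophil genes Mpo, Elane and Cxcr2 were at or within 0.1 of the minimum on all 4. The 29 immediate early genes averaged 11.55 and 9.80 in +/+ and 11.31 and 9.58 in flox/flox. The 6 tested macrophage and dendritic cell genes averaged 6.01 and 4.52 in +/+ and 5.69 and 4.45 in flox/flox, and Cd14, Itgam and Siglech were near the minimum on all 4. This trait was not particular to the pair, since the list averaged 5.65 and 4.52 in +/flox. In follicular cells it averaged 5.13 and 3.97 in +/+, 5.33 and 4.13 in +/flox and 5.04 and 4.14 in flox/flox. The neutrophil list averaged 5.75 and 2.34 in follicular +/flox and 8.11 and 2.34 in follicular flox/flox. It stayed low in follicular +/+ (2.31 and 2.32) and marginal zone +/flox (2.33 and 2.31). The immediate early list averaged 11.11 and 9.78 in follicular +/flox and 11.41 and 10.06 in follicular flox/flox. It was lower on replicate 1 in follicular +/+ (8.89 and 10.87) and marginal zone +/flox (7.96 and 9.42). The 2 erythroid genes that were tested, Car2 and Tfrc, averaged 8.77 and 6.42 in marginal zone +/+ and 6.61 and 6.52 in marginal zone flox/flox. Most of this came from Car2, at 6.68 and 2.49 in +/+ and 2.57 and 2.49 in flox/flox. Car2 was also high in follicular +/+, at 8.15 and 8.49. Tfrc read 10.87 and 10.35 in +/+ and 10.66 and 10.56 in flox/flox. The erythroid genes Klf1 and Epor were at or within 0.1 of the minimum on all 4. Genes that differed by 1 log2 unit or more within a pair numbered 1351 in +/+, 587 in flox/flox and 313 in +/flox. Changes in marginal zone cells are therefore given against both +/+ arrays and against +/+ replicate 2 alone.

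**Figure D1:**
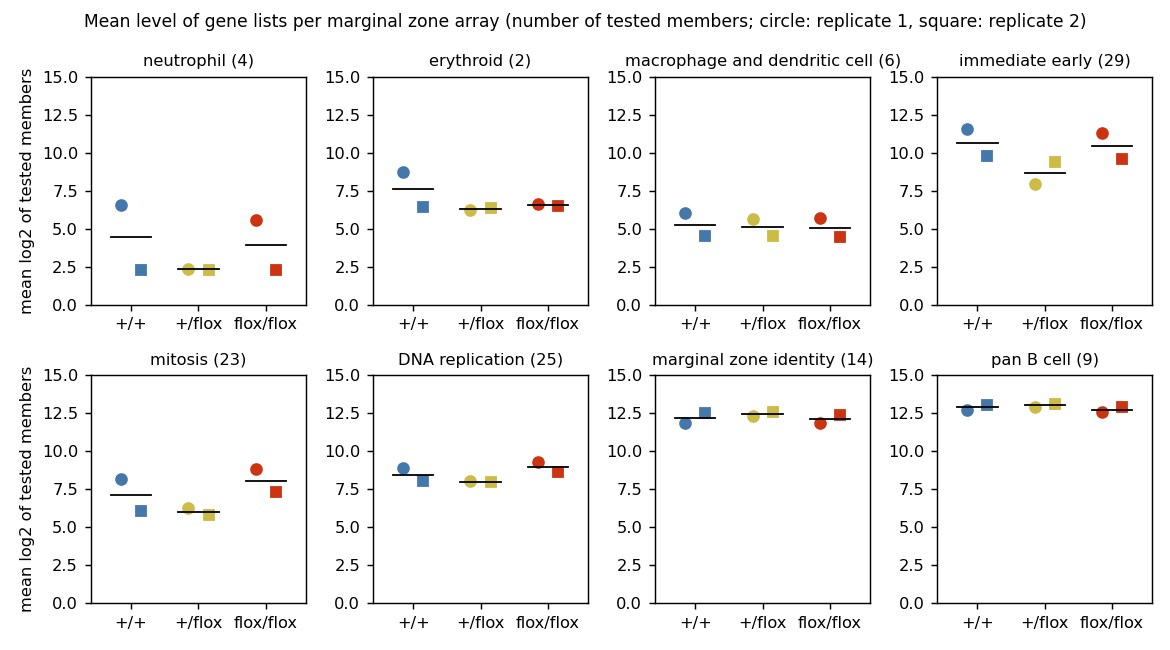
Mean log2 level of the tested members of 8 gene lists on each of the 6 marginal zone arrays, with circles for replicate 1, squares for replicate 2 and a bar for the group mean. The neutrophil, macrophage and immediate early lists sat higher on replicate 1 than on replicate 2 in both +/+ and flox/flox, and the macrophage list did so in +/flox too. The array means ran from 11.86 to 12.58 for the marginal zone list and from 12.56 to 13.11 for the pan B cell list.

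Bcl6 itself was measured by 2 probe sets. The stronger one read 8.29 and 8.81 in +/+, 9.44 and 9.38 in +/flox and 9.95 and 10.37 in flox/flox. The groups did not overlap and the level was highest in flox/flox, at 10.16 ± 0.30 (SD, n = 2) against 8.55 ± 0.37 (SD, n = 2) in +/+. The difference of 1.61 ± 0.23 (log2, SE) did not pass the threshold of 0.05 (limma adjusted p = 0.104), and against +/+ replicate 2 alone it was 1.35 (limma adjusted p = 0.250). In follicular cells this probe set was 0.99 higher in flox/flox (limma adjusted p = 0.170). The weaker Bcl6 probe set was at the minimum on all 6 marginal zone arrays, so it holds no information there. In follicular cells, where it was above the minimum, it read 4.94 and 5.61 in +/+ and 2.36 and 2.48 in flox/flox. No source used here gives the exons that Cre removes or the part of the transcript under each probe set, so the marginal zone Bcl6 values do not check the genotype labels.

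Across the 9306 genes tested, 6 passed the threshold for flox/flox minus +/+ in marginal zone cells, which is 0.0645% of the genes tested. Sh3bgrl2 rose (1 gene, 0.0107%), and Slc41a2, Chst11, Tspan15, Grip2 and Ms4a7 fell (5 genes, 0.0537%). Before adjustment 566 genes (6.08%) had p under 0.05, 211 higher (2.27%) and 355 lower (3.81%). The median change over all tested genes was -0.08 and 38.9% of the changes were above 0. Against +/+ replicate 2 alone 4 genes passed (0.043%), which were Sh3bgrl2, Slc41a2, Tspan15 and Stc1, and the median change was -0.03. Against +/+ replicate 1 alone 325 genes passed (3.49%), so the choice of +/+ array moved the count by far more than 1.5 times. Against the 2 +/flox arrays 3 genes passed (0.0322%), which were Sh3bgrl2, Slc41a2 and Tspan15. Without both replicate 1 arrays, with the lone array of each group assumed to vary like the other groups, no gene passed in limma, and 269 had p under 0.05 before adjustment.

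**Figure D2:**
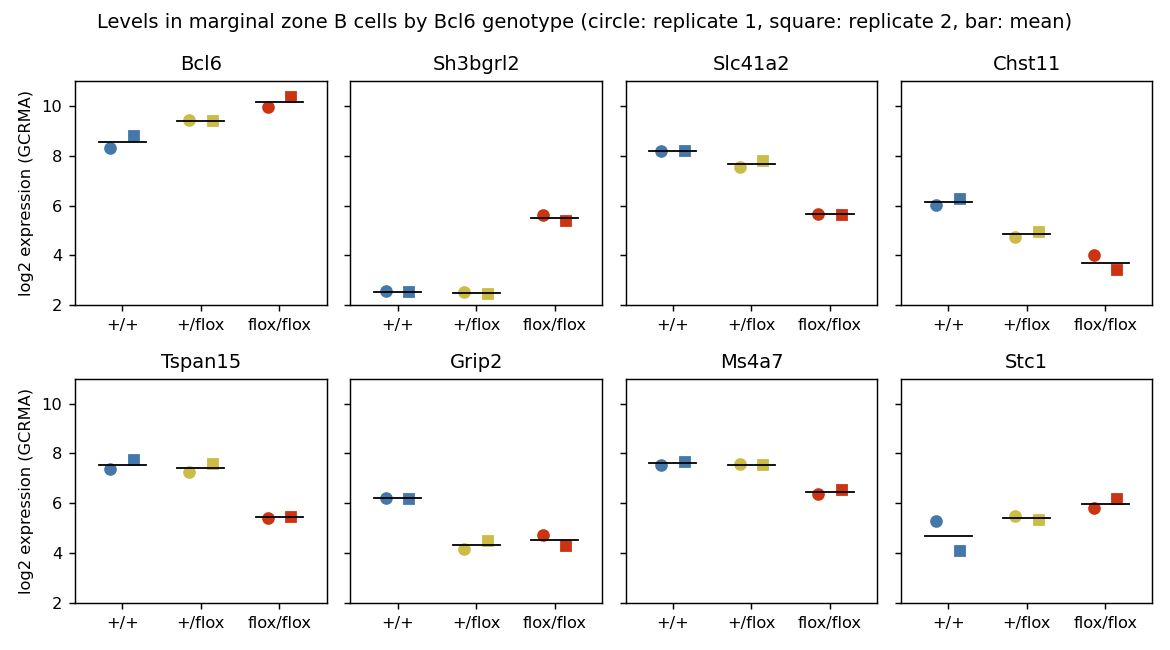
Log2 levels of Bcl6 and 7 other genes on the 6 marginal zone arrays by genotype, with circles for replicate 1, squares for replicate 2 and a bar for the group mean of 2 arrays. Sh3bgrl2 is near 2.5 in +/+ and +/flox and above 5 in flox/flox, and Slc41a2, Chst11, Tspan15 and Ms4a7 are lowest in flox/flox.

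The promoters of 3 called genes are shown because these genes passed the threshold in the same direction in both marginal zone and follicular cells, and because Slc41a2 and Chst11 are immediate neighbours on chromosome 10. The promoter of Eaf2 is shown because it was the only one, among 28 promoters of 23 named genes, with a match to the letters searched for BCL6, TTCCTAGAA or TTCTTAGAA on either strand. Sequences run 5' to 3' on the strand of the gene, from 250 bases before to 50 bases after the start site, in RefSeq GRCm38.p6. They lie at chr9:83548088-83548387 on the plus strand for Sh3bgrl2, chr10:83337768-83338067 on the minus strand for Slc41a2, chr10:82985247-82985546 on the plus strand for Chst11, and chr16:36874777-36875076 on the minus strand for Eaf2. The capitals mark the match, which begins at position -159 from the start site and reads TTCTAAGAA, the reverse complement of TTCTTAGAA.
Sh3bgrl2: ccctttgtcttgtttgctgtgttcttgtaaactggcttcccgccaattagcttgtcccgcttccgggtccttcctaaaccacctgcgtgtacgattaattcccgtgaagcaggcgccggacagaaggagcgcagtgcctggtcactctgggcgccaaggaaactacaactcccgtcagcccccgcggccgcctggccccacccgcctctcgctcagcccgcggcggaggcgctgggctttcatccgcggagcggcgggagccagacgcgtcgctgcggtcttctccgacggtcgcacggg
Slc41a2: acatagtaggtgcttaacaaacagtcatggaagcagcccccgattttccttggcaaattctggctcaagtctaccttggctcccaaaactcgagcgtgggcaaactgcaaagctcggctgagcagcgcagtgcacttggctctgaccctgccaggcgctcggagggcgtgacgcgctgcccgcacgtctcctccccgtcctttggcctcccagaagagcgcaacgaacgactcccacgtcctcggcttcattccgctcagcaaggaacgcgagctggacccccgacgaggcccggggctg
Chst11: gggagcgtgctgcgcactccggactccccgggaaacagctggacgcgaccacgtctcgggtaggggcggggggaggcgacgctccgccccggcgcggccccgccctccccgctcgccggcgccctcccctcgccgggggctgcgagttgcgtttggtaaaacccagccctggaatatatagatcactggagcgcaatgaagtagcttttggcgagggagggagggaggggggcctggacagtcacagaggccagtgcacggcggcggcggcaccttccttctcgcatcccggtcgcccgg
Eaf2: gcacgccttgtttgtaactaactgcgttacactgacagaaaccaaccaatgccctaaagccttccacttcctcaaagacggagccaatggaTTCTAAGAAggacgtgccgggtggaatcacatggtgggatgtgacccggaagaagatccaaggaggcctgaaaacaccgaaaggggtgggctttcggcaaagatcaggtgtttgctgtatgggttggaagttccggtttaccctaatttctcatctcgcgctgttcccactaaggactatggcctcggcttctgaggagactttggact
Of all 32851 promoters in the table, 276 (0.84%) held either motif, as did 48 of 9770 promoters of tested genes (0.491%). None of the 7 promoters of the 6 called genes held one. A match describes letters in the window and no more, and a window without one says only that these letters are not in it.

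Sh3bgrl2 encodes a small thioredoxin-fold protein of the SH3-binding glutamic acid-rich family. Its log2 levels were 2.58 and 2.52 in +/+, 2.52 and 2.46 in +/flox, and 5.64 and 5.37 in flox/flox. Both flox/flox arrays stood far above the other 4, which lay within 0.5 of the minimum. Sh3bgrl2 rose from 2.55 ± 0.04 to 5.50 ± 0.19 (SD, n = 2), a change of 2.95 ± 0.16 (log2, SE) or 7.74-fold, with limma adjusted p = 4.21e-04. It rose by 2.98 against +/+ replicate 2 alone (limma adjusted p = 0.00738) and against +/flox by 3.02 (limma adjusted p = 3.54e-04). Because the low arrays sit near the minimum, the size of the fold depends on the background correction. A second Sh3bgrl2 probe set read 2.72 and 2.72 in +/+ and 2.81 and 3.12 in flox/flox, so the same direction was seen there with a mean difference of 0.24. The 2 other tested members of the family did not pass. Sh3bgrl was at 12.02 and 12.02 in +/+ and 11.90 and 11.73 in flox/flox, and Sh3bgrl3 at 13.62 and 13.53 against 13.48 and 13.51.

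Slc41a2 encodes a magnesium transporter. Its log2 levels were 8.20 and 8.18 in +/+, 7.56 and 7.81 in +/flox, and 5.68 and 5.63 in flox/flox. The 3 genotypes did not overlap, and the +/flox arrays lay between the others. Slc41a2 fell by 2.54 ± 0.16 (log2, SE), 5.81-fold, from 8.19 ± 0.02 to 5.65 ± 0.04 (SD, n = 2), with limma adjusted p = 6.27e-04. It fell by 2.53 against +/+ replicate 2 alone (limma adjusted p = 0.0106). Among 9 tested magnesium transport genes Slc41a2 was the only one past the threshold, 8 had negative differences and the median was -0.28, or -0.16 against replicate 2 alone. Slc41a1, a paralog, read 8.95 and 8.51 in +/+ and 8.27 and 8.17 in flox/flox, a difference of -0.51 (limma adjusted p = 0.801), or -0.29 against replicate 2 alone. Mrs2, the mitochondrial magnesium channel, differed by -0.32, or -0.25 against replicate 2 alone.

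Chst11 encodes a sulfotransferase that places sulfate at the 4 position of chondroitin. Its log2 levels were 6.04 and 6.27 in +/+, 4.75 and 4.95 in +/flox, and 4.01 and 3.41 in flox/flox. Each genotype was separate from the next, with flox/flox lowest. Chst11 fell by 2.45 ± 0.26 (log2, SE), 5.45-fold, from 6.16 ± 0.16 to 3.71 ± 0.42 (SD, n = 2), with limma adjusted p = 0.0172. Against +/+ replicate 2 alone the difference was as large, -2.56, and did not pass (limma adjusted p = 0.102). The call was also lost without either +/flox array, without flox/flox replicate 2 and without either follicular +/flox array, where adjusted p lay between 0.0582 and 0.0819. A second Chst11 probe set was near the minimum, at 2.57 and 2.43 in +/+ and 2.43 and 2.35 in flox/flox. Of 10 tested genes of chondroitin sulfate synthesis Chst11 alone passed, 7 were negative and the median was -0.24, or -0.19 against replicate 2 alone. Dse, which epimerises the chain to dermatan, read 7.36 and 7.52 in +/+ and 6.24 and 6.80 in flox/flox, a difference of -0.93 (limma adjusted p = 0.488), or -1.01 against replicate 2 alone. Csgalnact2, which starts and extends the chain, differed by -0.40, or -0.42.

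Tspan15 encodes a tetraspanin that partners the metalloprotease ADAM10. Its log2 levels were 7.37 and 7.73 in +/+, 7.27 and 7.56 in +/flox, and 5.43 and 5.44 in flox/flox. The +/+ and +/flox arrays overlapped and both flox/flox arrays lay well below them. Tspan15 fell by 2.12 ± 0.19 (log2, SE), 4.34-fold, from 7.55 ± 0.25 to 5.43 ± 0.01 (SD, n = 2), with limma adjusted p = 0.00736. It fell by 2.30 against +/+ replicate 2 alone (limma adjusted p = 0.0214) and against +/flox by 1.98 (limma adjusted p = 0.0125). The call was lost when either flox/flox array was left out (limma adjusted p = 0.0846 without replicate 1 and 0.0811 without replicate 2). Of 14 tested tetraspanins Tspan15 alone passed, 9 were negative and the median was -0.15, or -0.22 against replicate 2 alone. Cd151 read 6.90 and 7.43 in +/+ and 5.92 and 7.08 in flox/flox, which overlap.

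Grip2 encodes a scaffold protein with PDZ domains, first described at glutamate receptors. Its log2 levels were 6.22 and 6.17 in +/+, 4.17 and 4.48 in +/flox, and 4.73 and 4.30 in flox/flox. Both +/+ arrays were high and the +/flox and flox/flox arrays overlapped, so the level with 1 floxed allele was as low as with 2. Grip2 fell by 1.68 ± 0.18 (log2, SE), 3.20-fold, from 6.19 ± 0.03 to 4.52 ± 0.30 (SD, n = 2), with limma adjusted p = 0.0172. It was also the only gene that passed for +/flox minus +/+ (0.0107%), a comparison with the same +/+ arrays, where it fell by 1.87 (limma adjusted p = 0.0368). Against +/+ replicate 2 alone the difference was -1.65 (limma adjusted p = 0.106). The call was also lost without flox/flox replicate 2 (limma adjusted p = 0.0819) and without any 1 of the 6 follicular arrays (0.0622 to 0.0683).

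Ms4a7 belongs to the family of 4-span membrane proteins that includes CD20, the product of Ms4a1. Its log2 levels were 7.55 and 7.65 in +/+, 7.56 and 7.55 in +/flox, and 6.36 and 6.53 in flox/flox. The flox/flox arrays were the lowest and the other 4 were nearly equal. Ms4a7 fell by 1.15 ± 0.13 (log2, SE), 2.22-fold, from 7.60 ± 0.07 to 6.45 ± 0.12 (SD, n = 2), with limma adjusted p = 0.0265. Against +/+ replicate 2 alone the difference was -1.21 (limma adjusted p = 0.104) and against +/flox -1.11 (limma adjusted p = 0.0529). Ms4a7 stayed past the threshold in only 1 of the 12 fits that leave out 1 array, the one without +/+ replicate 2 (limma adjusted p = 0.0113), and the adjusted p of the others lay between 0.0836 and 0.308. A second Ms4a7 probe set read 3.12 and 3.50 in +/+ and 2.35 and 3.12 in flox/flox. Ms4a7 was the only one of 7 tested family members past the threshold, and 6 were negative with a median of -0.31, or -0.33 against replicate 2 alone. Ms4a1 read 15.09 and 15.39 in +/+ and 14.73 and 15.22 in flox/flox, which overlap.

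Grip2 and Ms4a7 were at the minimum or within 0.02 of it on all 6 follicular arrays, and Tspan15 was within 0.4 of it. Arrays at the minimum have almost no spread, and the model shares 1 residual SD per gene over all 12 arrays, so the SEs and p-values of these 3 genes can be too small. Sh3bgrl2 was also low, at 2.46 to 2.77, on every +/+ and +/flox array of both cell types. It passed the filter only through the flox/flox arrays, where it was high, so its SEs and p-values can be too small as well. When the 6 marginal zone arrays were fitted alone, limma called no gene, with 332 at p under 0.05 before adjustment, and the adjusted p was 0.0946 for Sh3bgrl2 and for Slc41a2, 0.458 for Tspan15, 0.497 for Chst11 and 0.891 for Grip2 and for Ms4a7. With the 4 compared arrays alone, which leave 2 residual degrees of freedom, limma called no gene and 253 had p under 0.05 before adjustment.

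Stc1, which encodes the secreted glycoprotein stanniocalcin, passed only against +/+ replicate 2 alone. It read 5.29 and 4.09 in +/+, 5.48 and 5.32 in +/flox, and 5.80 and 6.17 in flox/flox. Both flox/flox arrays were above both +/+ arrays, which differed from each other by more than 1 unit. The difference was 1.30 ± 0.33 (log2, SE) against both +/+ arrays (limma adjusted p = 0.552) and 1.90 against +/+ replicate 2 alone (limma adjusted p = 0.0377). Stc1 was at the minimum on all 6 follicular arrays, so the caution on shared spread holds for it too.

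Values on individual arrays show how far the +/+ replicates limit the comparison. Without regard to p, the flox/flox mean was 1 log2 unit or more away from +/+ replicate 1 for 973 genes and from +/+ replicate 2 for 333 genes. It was that far above both for 22 genes (0.236%) and that far below both for 19 (0.204%), and 53 genes were above 1 array and below the other. Flox/flox arrays did not overlap the +/+ arrays for 2908 genes (31.2%), 927 higher (9.96%) and 1981 lower (21.3%).

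**Figure D3:**
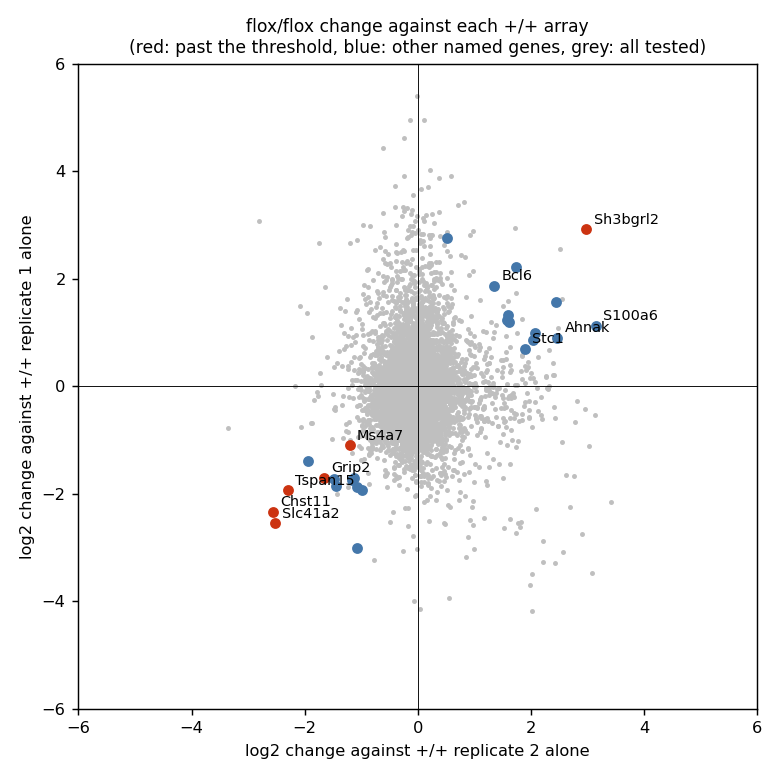
Log2 change of the flox/flox mean against +/+ replicate 2 alone (horizontal) and against +/+ replicate 1 alone (vertical), with 1 point per tested gene, red for the 6 called genes and blue for other named genes. The cloud of all genes is taller than wide, since 973 genes differed by 1 unit or more from replicate 1 and 333 from replicate 2.

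A wider set of 173 genes (1.86% of those tested) had p under 0.05 before adjustment against both +/+ arrays and against +/+ replicate 2 alone, with the same sign, no overlap and a higher group mean of at least 5. Of these 66 were higher and 107 lower in flox/flox. The 12 largest in each direction are named here. None beyond those already given passed the threshold, so their values are descriptions.

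Among the genes with higher values, S100a6, a calcium-binding protein, read 7.55 and 5.53 in +/+, 7.07 and 6.07 in +/flox, and 8.94 and 8.43 in flox/flox. Both flox/flox arrays were above all others, and the difference was 2.14 ± 0.60 (log2, SE; limma adjusted p = 0.656), or 3.15 against +/+ replicate 2 alone (limma adjusted p = 0.107). Ahnak, a giant scaffold protein, read 6.73 and 5.17 in +/+, 3.91 and 4.55 in +/flox, and 8.26 and 7.02 in flox/flox, a difference of 1.68, or 2.47 against +/+ replicate 2 alone. Both genes were higher on replicate 1 than on replicate 2 in +/+ and in flox/flox. Pdlim1, a PDZ and LIM domain protein of the actin cytoskeleton, read 9.03 and 7.85 in +/+ and 10.00 and 9.78 in flox/flox, a difference of 1.45, or 2.04 against replicate 2 alone. Sel1l3 read 4.66 and 3.78 in +/+ and 5.88 and 6.57 in flox/flox, a difference of 2.0, or 2.44 against replicate 2 alone. Klhl9, an adaptor of the CUL3 ubiquitin ligase, read 8.71 and 9.20 in +/+, 10.23 and 9.66 in +/flox and 10.59 and 11.29 in flox/flox, with +/flox between the others and a difference of 1.98, or 1.74 against replicate 2 alone.

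For Upb1, an enzyme of pyrimidine breakdown, the levels were 5.64 and 5.23 in +/+ and 7.40 and 6.28 in flox/flox, a difference of 1.41, or 1.61 against replicate 2 alone. Gad1, which makes the transmitter GABA, read 3.82 and 3.48 in +/+ and 4.83 and 5.28 in flox/flox, a difference of 1.41, or 1.58 against replicate 2 alone. Erich2 differed by 1.53, or 2.07 against replicate 2 alone. Rin3, an exchange factor for RAB5, read 7.40 and 9.64 in +/+ and 10.15 and 10.18 in flox/flox. Its difference of 1.64 came mostly from +/+ replicate 1 and was 0.52 against replicate 2 alone, more than 1.5 times smaller.

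Among the genes with lower values, Eaf2, a cofactor of the elongation factor ELL, read 8.10 and 7.70 in +/+, 7.01 and 7.10 in +/flox, and 6.48 and 6.03 in flox/flox. The 3 genotypes did not overlap, and the difference was -1.65 ± 0.34 (log2, SE; limma adjusted p = 0.387), or -1.45 against +/+ replicate 2 alone. Per2, a repressor of the circadian clock, read 6.64 and 7.20 in +/+, 5.70 and 6.94 in +/flox and 5.06 and 5.45 in flox/flox, a difference of -1.66, or -1.94 against replicate 2 alone. Fgd6, an exchange factor for CDC42, read 8.20 and 7.62 in +/+, 7.22 and 7.28 in +/flox and 6.40 and 6.59 in flox/flox, again with +/flox between the others, and differed by -1.42, or -1.13 against replicate 2 alone. Tmed6, a p24 family protein of the early secretory pathway, read 5.39 and 4.83 in +/+, 5.51 and 5.16 in +/flox and 3.57 and 3.74 in flox/flox. It differed by -1.45 (limma adjusted p = 0.112) from +/+, by -1.17 from replicate 2 alone and by -1.68 (limma adjusted p = 0.0708) from +/flox.

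Fmo5, a flavin monooxygenase, was low with 1 floxed allele and with 2, and read 6.30 and 5.34 in +/+, 4.57 and 4.35 in +/flox and 4.39 and 4.34 in flox/flox. It differed by -1.46 from +/+, or -0.98 from replicate 2 alone. Acsl3, an acyl-CoA synthetase, differed by -1.47, or -1.07 against replicate 2 alone. Cdk5rap1, a mitochondrial tRNA-modifying enzyme, differed by -1.60, or -1.49. Ildr1, a protein of tricellular junctions, read 6.42 and 4.49 in +/+ and 3.61 and 3.20 in flox/flox, and its difference of -2.05 shrank to -1.08 against replicate 2 alone.

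Of the 25 lists with 6 or more tested members, mitosis had the largest median. All 23 tested mitosis genes had a positive difference, with a median of 1.06 against -0.08 over all tested genes, and none passed the threshold. Against +/+ replicate 2 alone all 23 were again positive, with a median of 2.0, and against +/flox all 23 with a median of 2.12. Against +/+ replicate 1 alone 9 were positive and the median was -0.09. The mean level of the list was 8.15 and 6.08 in +/+, 6.25 and 5.77 in +/flox, and 8.84 and 7.29 in flox/flox, so +/+ replicate 1 lay between the flox/flox arrays. Left with replicate 2 of each group, the median was 1.21.

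Plk1, the mitotic kinase, read 4.11 and 3.85 in +/+ and 6.20 and 4.69 in flox/flox, which do not overlap, and differed by 1.46 (limma adjusted p = 0.669), or 1.60 against replicate 2 alone. Ube2c, which carries ubiquitin to the anaphase-promoting complex, read 7.89 and 6.49 in +/+ and 9.94 and 8.02 in flox/flox, a difference of 1.79, or 2.48 against replicate 2 alone. Kif11, a spindle motor, read 7.13 and 5.19 in +/+ and 8.24 and 6.90 in flox/flox, which overlap. In each of these genes replicate 1 was the higher array of both genotypes, as in the neutrophil and immediate early lists, and the part of these lists in the result was not tested.

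DNA replication genes had smaller values in the same direction. Of 25 tested, 24 were positive with a median of 0.49, and 0.95 against +/+ replicate 2 alone. Against +/+ replicate 1 alone 10 were positive and the median was -0.06. Mcm2, a subunit of the replicative helicase, read 8.03 and 8.04 in +/+, 7.56 and 8.23 in +/flox and 9.02 and 8.77 in flox/flox, so here both flox/flox arrays exceeded all others and the difference was 0.86 (limma adjusted p = 0.801), or 0.85 against replicate 2 alone. Lig1, which joins Okazaki fragments, read 8.70 and 7.68 in +/+ and 9.86 and 8.50 in flox/flox, which overlap. In follicular cells the medians for flox/flox minus +/+ were 0.00 for mitosis and -0.02 for DNA replication. The mitosis list averaged only 3.81 to 4.78 on the follicular arrays, against 5.77 to 8.84 on the marginal zone arrays. Plk1 (3.03 to 3.07) and Kif20a (2.44 to 2.49) were low on every follicular array. A low level leaves little room for a fall but does not prevent a rise. The DNA replication list was well above the minimum, at 7.55 to 7.77 on the follicular arrays. Whether the shift of either list is particular to marginal zone cells was not tested.

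**Figure D4:**
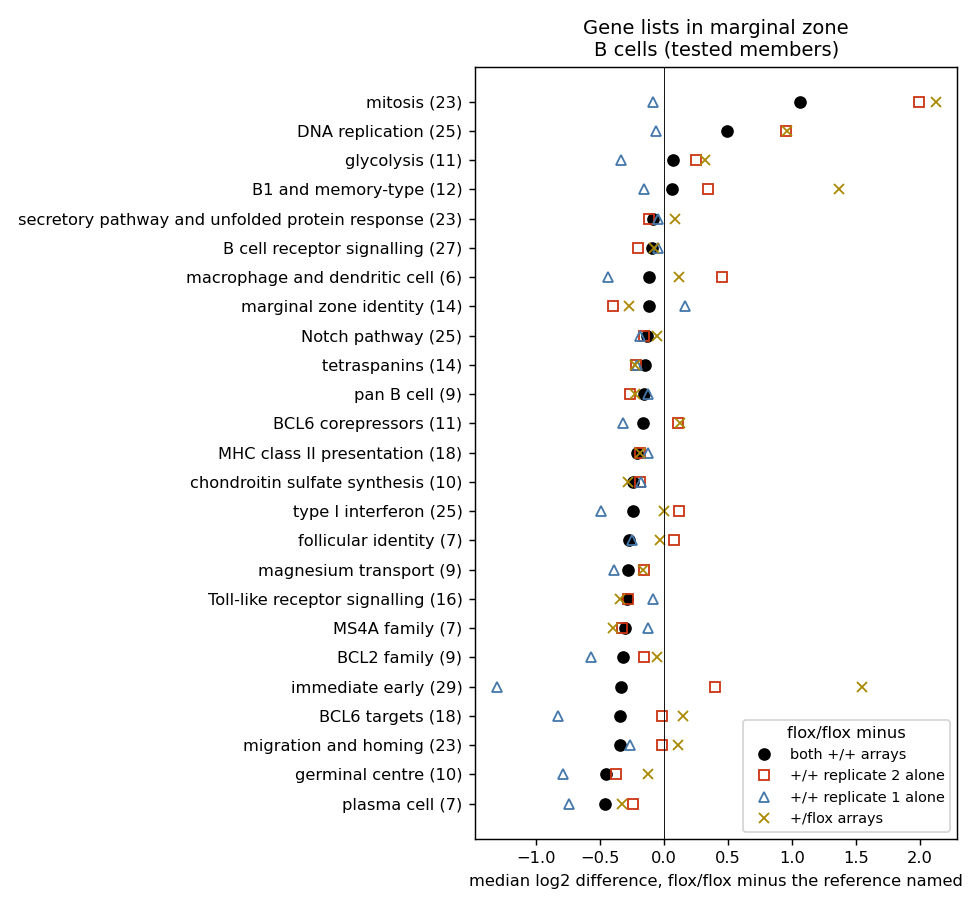
Median log2 difference of the tested members of 25 gene lists in marginal zone cells, for flox/flox minus both +/+ arrays (black circles), minus +/+ replicate 2 alone (red squares), minus +/+ replicate 1 alone (blue triangles) and minus +/flox (yellow crosses); the number of tested members is in brackets. Mitosis has the largest median against both +/+ arrays, against +/+ replicate 2 and against +/flox, and lies just below 0 against +/+ replicate 1, while the immediate early list changes sign with the reference.

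Immediate early genes, such as Fos and Junb, are transcribed within minutes of a stimulus and of cell handling. Their median was -0.33 against both +/+ arrays, 0.40 against replicate 2 alone, -1.31 against replicate 1 alone and 1.55 against +/flox, so no direction holds across references. Junb read 7.41 and 10.02 in +/+, 6.56 and 9.71 in +/flox and 11.35 and 10.33 in flox/flox, a spread of more than 2 units within +/+ and within +/flox. None of the 29 tested members passed.

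The list of genes high in B1 and memory-type B cells had a median of 0.07 over 12 tested members, 0.35 against replicate 2 alone and 1.37 against +/flox. Against both +/+ arrays 7 members were positive and 5 negative. Against +/+ replicate 1 alone 5 were positive and the median was -0.16. Among the negative members, Ptpn22 differed by -0.57, or -0.27 against replicate 2 alone, and Cd5 by -0.28, or 0.18. Besides S100a6 and Ahnak, S100a4 read 3.98 and 3.06 in +/+ and 7.08 and 4.13 in flox/flox, where flox/flox replicate 1 carried most of the difference of 2.09, or 2.55 against replicate 2 alone. Vim, an intermediate filament, read 11.69 and 10.14 in +/+ and 12.44 and 11.51 in flox/flox, which overlap. S100a6, S100a4 and Vim are also expressed by myeloid cells, and the part of the higher neutrophil and macrophage values of both replicate 1 arrays in these values was not tested.

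Genes listed as BCL6 targets had mixed values. Of 18 tested members 5 were positive, none passed, and the median was -0.34 against both +/+ arrays and -0.02 against replicate 2 alone. Prdm1, which encodes the plasma cell factor BLIMP1 and is repressed by BCL6 in germinal centre cells, read 7.67 and 6.35 in +/+, 6.21 and 6.64 in +/flox and 5.75 and 5.84 in flox/flox. It was thus lowest in flox/flox, with a difference of -1.21 (limma adjusted p = 0.725), or -0.55 against replicate 2 alone. Ccnd2, a cyclin that drives entry into the cell cycle, read 10.56 and 9.93 in +/+, 9.54 and 9.55 in +/flox and 11.18 and 11.05 in flox/flox. Both flox/flox arrays were the highest, and the difference was 0.87 (limma adjusted p = 0.758), or 1.18 against replicate 2 alone. Cd80, a costimulatory ligand, read 5.72 and 5.44 in +/+ and 4.44 and 4.96 in flox/flox, a difference of -0.88, or -0.74 against replicate 2 alone.

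Other genes of activation and antigen presentation also had lower values without passing. Cd83, a surface protein that stabilises MHC class II, read 11.84 and 11.44 in +/+, 10.77 and 10.94 in +/flox and 10.57 and 10.62 in flox/flox. The genotypes were in that order without overlap, and the difference was -1.04 (limma adjusted p = 0.284), or -0.84 against replicate 2 alone. H2-Eb2, an MHC class II beta chain gene, was nearly equal on the other 4 arrays, at 9.93, 9.92, 9.87 and 9.79, and read 8.79 and 9.21 in flox/flox, a difference of -0.92 against either reference. Fas, the CD95 death receptor and one of the depletion targets, read 6.76 and 7.15 in +/+, 6.32 and 6.75 in +/flox and 5.76 and 6.05 in flox/flox, a difference of -1.05, or -1.24 against replicate 2 alone. Cd86 differed by -0.78, or -0.70 against replicate 2 alone. Ciita did not fall in this way, and read 7.51 and 10.12 in +/+ and 9.885 and 10.20 in flox/flox. Its difference was 1.22 against both +/+ arrays, 2.53 against replicate 1 alone and -0.08 against replicate 2 alone. Of 18 MHC class II presentation genes, Ciita among them, 15 were negative with a median of -0.22, or -0.19 against replicate 2 alone. Of 10 germinal centre genes 8 were negative with a median of -0.45, or -0.37. The medians over all tested genes were -0.08 and -0.03.

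B cell receptor and Toll-like receptor genes had small shifts. The 27 tested receptor signalling genes had a median of -0.10, and -0.20 against replicate 2 alone, where 24 were negative. Rasgrp3, an activator of RAS below the receptor, read 11.58 and 11.17 in +/+, 10.68 and 10.88 in +/flox and 10.62 and 10.06 in flox/flox, a difference of -1.03 (limma adjusted p = 0.436), or -0.83 against replicate 2 alone. Pik3ap1, an adaptor to PI3 kinase, differed by -0.68, or -0.43 against replicate 2 alone. The 16 Toll-like receptor genes had a median of -0.29 against either reference, with 14 negative, and Myd88, their main adaptor, differed by -0.43, or -0.24 against replicate 2 alone.

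Genes of marginal zone identity had a median that depended on the reference, and none passed the threshold. The 14 members had a median of -0.12 against both +/+ arrays, with 8 negative, of -0.40 against replicate 2 alone, with 12 negative, and of 0.16 against replicate 1 alone. Over the 6 marginal zone arrays Plac8 and Cd9 ranged by less than 0.3 units, and 5 members ranged by more than 1. Asb2 read 7.53 and 10.33 in +/+ and 9.23 and 10.43 in flox/flox, with +/+ replicate 1 lowest, and S1pr3, a sphingosine phosphate receptor, read 11.57 and 12.92 in +/+ and 11.32 and 12.45 in flox/flox, which overlap. The mean level of the list was 11.86 and 12.51 in +/+ and 11.90 and 12.37 in flox/flox. Notch2, the receptor needed for the lineage, read 12.61 and 12.52 in +/+ and 12.06 and 12.31 in flox/flox, a difference of -0.38 (limma adjusted p = 0.801), or -0.34 against replicate 2 alone. Notch1 was the reverse, at 8.19 and 8.53 in +/+, 8.45 and 8.77 in +/flox and 9.12 and 9.04 in flox/flox, a difference of 0.72 (limma adjusted p = 0.552), or 0.54 against replicate 2 alone. The Notch target Dtx1 read 12.35 and 13.28 in +/+ and 13.15 and 13.35 in flox/flox, which overlap. The 25 genes of the Notch pathway had a median of -0.13, or -0.16 against replicate 2 alone. Vpreb3 is a gene of precursor and transitional B cells. It read 8.18 and 8.37 in +/+, 7.01 and 7.25 in +/flox and 7.74 and 6.60 in flox/flox. Its flox/flox arrays overlapped +/flox, and the difference was -1.10, or -1.20 against replicate 2 alone. The 4 tested genes of that list were mixed. Cd24a differed by -0.19, or -0.17, whereas Cd93 differed by 0.85, or 0.86, and Sox4 by 0.67, or 1.14. The list median was 0.24, or 0.35 against replicate 2 alone.

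No gene of the remaining lists passed the threshold. Their medians against both +/+ arrays were -0.46 for 7 plasma cell genes, -0.34 for 23 migration and homing genes, -0.32 for 9 BCL2 family genes, -0.28 for 7 follicular identity genes, -0.25 for 25 type I interferon genes, -0.16 for 11 BCL6 corepressors and for 9 pan B cell genes, -0.09 for 23 genes of the secretory pathway, and 0.07 for 11 glycolysis genes. In the same order, the medians against replicate 2 alone were -0.25, -0.02, -0.15, 0.08, 0.12, 0.11, -0.27, -0.12 and 0.25. Of 5 platelet genes none was above the filter, and of 9 measured T cell genes and 6 measured NK cell genes 2 and 1 were.

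The same contrast in follicular cells, on 4 other arrays, placed the marginal zone changes. Both contrasts come from 1 model that shares the residual SD of a gene, so their p-values are not independent. The labels do not state whether follicular and marginal zone samples share mice. There 40 of 9306 genes passed (0.43%), 35 higher (0.376%) and 5 lower (0.0537%). Sh3bgrl2, Slc41a2 and Chst11 passed in both cell types in the same direction. Sh3bgrl2 read 2.77 and 2.58 in follicular +/+ and 6.46 and 6.59 in follicular flox/flox, a rise of 3.85 (limma adjusted p = 2.34e-05). It passed the filter only through the flox/flox arrays, so this p-value can be too small. Slc41a2 read 7.57 and 7.41 against 4.58 and 4.38, a change of -3.01 (limma adjusted p = 1.03e-04). Chst11 read 6.61 and 6.13 against 4.46 and 4.86, a change of -1.71 (limma adjusted p = 0.0363). In the test of the difference between the cell types, which called 1 gene (0.0107%), none of these 3 passed (limma adjusted p = 0.758, 0.976 and 0.976).

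For Tspan15, Grip2 and Ms4a7 the follicular levels were near or at the minimum in every genotype, which leaves no room for a fall. The differences between the marginal zone and the follicular change were -1.95, -1.68 and -1.14 and did not pass (limma adjusted p = 0.199, 0.224 and 0.224). Of the 26 called or otherwise named genes 5 passed in follicular cells, the other two being Pdlim1 (2.21, limma adjusted p = 0.0498) and Upb1 (3.12, limma adjusted p = 0.0117).

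**Figure D5:**
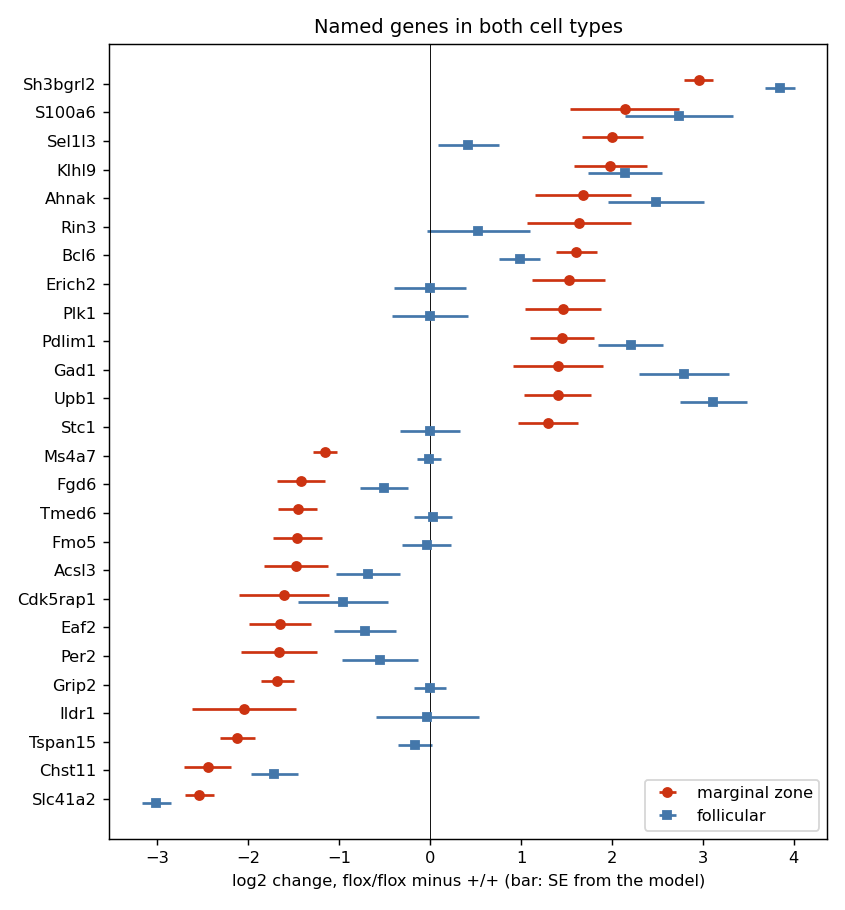
Log2 change for flox/flox minus +/+ of the 26 called or otherwise named genes in marginal zone cells (red circles) and follicular cells (blue squares), with bars for the SE from the model over all 12 arrays. Sh3bgrl2, Slc41a2 and Chst11 lie on the same side in both cell types, while Tspan15, Grip2 and Ms4a7 are near 0 in follicular cells, where their levels were at or near the minimum.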

How the data were processed

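Per the labels' protocols, total RNA of sorted splenic B cells was amplified with a 3' IVT kit and hybridised to Affymetrix arrays. The deposited values are log2 expression per probe set; the submitters' processing notes name GCRMA, of which no version is given. This method adjusts for sequence-dependent background and applies quantile normalization, so low values collect at a minimum, here 2.2126 on the follicular and 2.2192 on the marginal zone arrays. The cell types were therefore probably normalized separately, and levels were not tested across them.

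Of 45101 probe sets, 64 were controls and 34945 others had 1 symbol in the platform annotation, 932 had several and 9160 none. Each gene was represented by the probe set that had the highest 12-array mean (18193 genes), and was tested if at log2 of 4 or more on at least 2 arrays (9306 genes). Group means of 6 groups were fitted over 12 arrays (R 4.3.3, limma 3.58.1, lmFit then eBayes), with 6 residual degrees of freedom, two-sided p-values and Benjamini-Hochberg adjustment over all tested genes at 0.05. The fit was tested on simulated data with normal noise of 1 SD per gene, the same on all 12 arrays. Those data held no deviant array such as marginal zone +/+ replicate 1 and no values fixed at a minimum, so the test does not cover these conditions. Changes against 1 +/+ array used the same model without the other. The number of arrays limits the precision.

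Named genes were Bcl6, every called gene, the top 12 per direction by size of change among those with p under 0.05 and 1 sign against both references, no overlap and a higher mean of at least 5, up to 6 per direction called against +/+ replicate 2 alone, and of each described list the up to 4 members with the smallest p, plus the families of called genes and cell type markers. The members, the 32 gene lists and the tests were chosen with earlier results of these data known. Lists are described by counts and medians without a test. Promoters came from RefSeq GRCm38.p6. Alternatives covered left-out arrays, arrays in the model, filter, probe set rule, moderation, weights, scaling and a replicate block.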

Additional observations from a re-analysis of the deposited data

Results flagged for a closer look

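Pik3r6, which encodes a regulatory subunit of PI3 kinase gamma, was the only gene whose flox/flox change differed between the cell types past the threshold. Its marginal zone change minus its follicular change was -4.15 (log2; interaction contrast in limma, adjusted p = 6.92e-04). The gene sat at the minimum on the 4 follicular +/+ and +/flox arrays and read 6.71 and 6.36 in follicular flox/flox, while in marginal zone cells it read 2.22 and 2.22 in +/+ and 2.56 and 2.23 in flox/flox. Pik3r6 passed the filter only through the 2 follicular flox/flox arrays and was at or within 0.35 of the minimum on the other 10, which have almost no spread, so this p-value can be too small. With the low-value filter applied within the marginal zone arrays, Pik3r6 was not tested.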

How the results depend on the processing

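The model called 6 genes for flox/flox minus +/+. Leaving out 1 array at a time gave 2 to 325 calls, the lowest without flox/flox replicate 2 and the highest without +/+ replicate 2, and 3 without either follicular +/flox array. There were 0 calls in limma for the 6 marginal zone arrays alone, for the 4 compared arrays alone and, in an alternative chosen after seeing the data, without both replicate 1 arrays of the compared groups (332, 253 and 269 genes at p under 0.05 before adjustment, against 566). Array weights gave 3 calls, as did every probe set tested separately. With the replicate number as a block there were 3, all among the 6. Same-numbered marginal zone arrays deviated together between +/+ and flox/flox (r = 0.578) but not between +/+ and +/flox (r = -0.03) or +/flox and flox/flox (r = 0.0359). In follicular cells they deviated together between +/flox and flox/flox (r = 0.768) but not between +/+ and +/flox (r = -0.107) or +/+ and flox/flox (r = -0.255). The pattern differed between the cell types, so the numbers were not taken to pair the arrays. The other scalings, filters, the other probe set rule and trended robust moderation gave 4 to 9.

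Sh3bgrl2 and Slc41a2 lost their calls in 3 of 25 alternatives, which were the marginal zone arrays alone, the 4 arrays alone and the omission of both replicate 1 arrays. Tspan15 lost it in 5, Chst11 in 13, Grip2 in 15 and Ms4a7 in 19. Their directions did not reverse in any of them. The cause was not tested.

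The difference between cell types was called for 1 gene. Leaving out 1 array at a time gave 1 to 107, the highest without marginal zone +/+ replicate 2. It was 2 without both replicate 1 arrays, 6 with no filter, and 0 with the filter applied within the marginal zone arrays, where limma still had 320 genes at p under 0.05 before adjustment.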

Other observations

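Slc41a2 and Chst11, which both fell, are adjacent protein-coding genes on chromosome 10 in RefSeq GRCm38.p6, an observation made after their values were seen. The other tested genes among the 8 on each side of Chst11 differed by -0.37 to 0.33, or -0.36 to 0.76 against +/+ replicate 2 alone, and none passed the threshold. Tspan15, the next strongest fall, is also on chromosome 10. Of 467 tested genes on chromosome 10, 17 (3.64%) were among the 173 genes with p under 0.05 before adjustment against both references, no overlap and a higher mean of at least 5, against 1.86% over all tested genes, and the named genes of that set included 5 there, Slc41a2, Chst11, Tspan15, Fgd6 and Upb1. On chromosome 16, which holds Bcl6, the count was 10 of 308 (3.25%).

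Lpp, the neighbour of Bcl6 on chromosome 16, had a mean log2 level of 9.23 in +/+ and 10.05 in flox/flox marginal zone cells, a difference of 0.82 (limma adjusted p = 0.801), or 1.21 against +/+ replicate 2 alone, and 1.52 in follicular cells.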
